A study of Mus musculus with 2 samples.

Results

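The F-series of FANTOM3 clones are the annotated long noncoding RNAs (lncRNAs) whose identifiers begin with fantom3_F, and they were taken by this prefix alone. They make up 1934 of the 33353 FANTOM3 entries and of the 37072 annotated lncRNA entries that were quantified in primary mouse hepatocytes. There was 1 library from control mice injected intraperitoneally with oil and 1 library from mice injected with CCl4, a solvent whose metabolism injures hepatocytes and whose repeated injection is a standard model of liver fibrosis. All mice were wild-type C57BL/6J, the study's methods give young male mice, and the labels give 20% CCl4 solution in mineral oil at 2.5 ml CCl4 per kilogram with 2 injections per week for 8 weeks, whereas the methods give a shorter course. How many mice each library drew on, and whether they were pooled, is not given in the sources used here. Because there was 1 library per condition, no difference here has a replicate check and no test of the treatment was possible. "Higher" and "lower" in this text describe the CCl4 library in comparison with the oil library.

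FANTOM3 is a collection of full-length mouse cDNAs, each named after the plate and the well in which the clone is stored. The first characters of the name therefore group clones by series of plates. Many of the clones show no long open reading frame and were annotated as lncRNAs, a class of transcripts of which some are known to regulate genes and most have no known role. A clone marks a transcript that was once cloned from some mouse tissue, and its reads in another preparation may come from any cell that transcribes the same locus. No sequence or position of the clones was used here, so reads shared with overlapping genes, on the same or the opposite strand, were not separated.

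Most F-series clones were not detected in hepatocytes. The level is given as RPKM, reads per kilobase of transcript scaled to the depth of the library, and the deposited table lists a 0 wherever a level fell below 1 RPKM. At 1 RPKM or more, 291 of the 1934 clones (15%) were present with oil and 342 (17.7%) with CCl4. Thus 266 clones were detected in both, 76 only in the CCl4 library, 25 only in the oil library and 1567 (81.0%) in neither. The other 31419 FANTOM3 clones were detected more often, 21.9% with oil and 25.2% with CCl4. Among the 20 leading characters of FANTOM3 identifiers, the F-series ranked 19 by its share in the oil library and 18 by its share in the CCl4 library. Clones with a leading 0, 1 or 2 had higher shares, 42.1% and 46.7%, and the small K series had the lowest, 7.25% and 6.74%. These are descriptions of the same 2 libraries and were not tested.

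**Figure D1:**
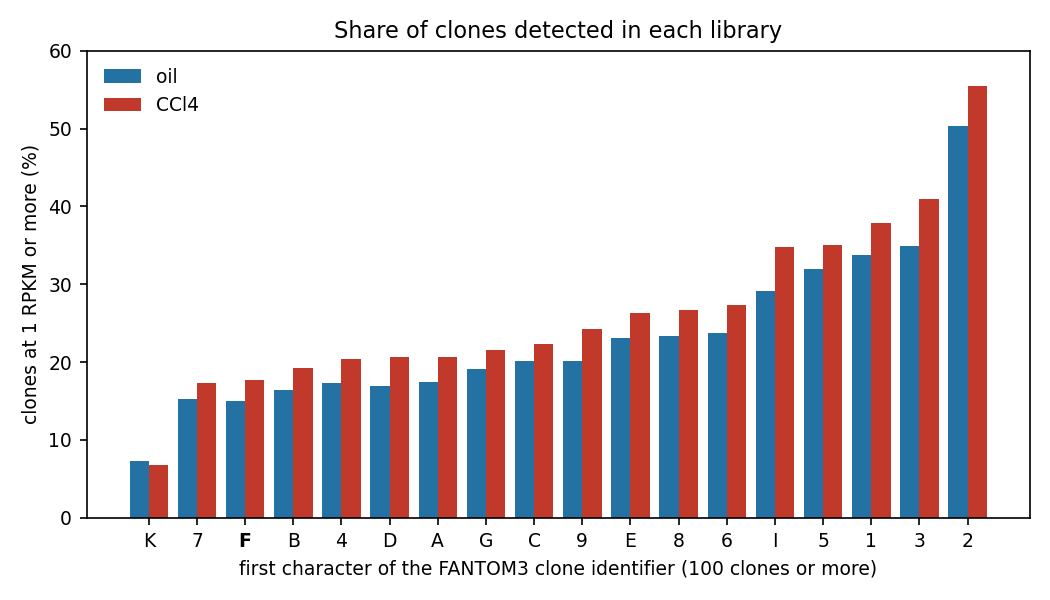
Percent of FANTOM3 clones at 1 RPKM or more (vertical axis) for each leading character of the identifier with at least 100 clones (horizontal axis), in the oil library (blue) and the CCl4 library (red). The F-series, in bold, stood at 15% and 17.7%, near the lower end, and each series but K had the larger share in the CCl4 library.

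The 266 F-series clones detected in both libraries leaned toward higher values after CCl4, as did lncRNAs as a whole. Their median level was 3.04 RPKM with oil and 3.79 RPKM with CCl4. The log2 ratio of CCl4 over oil, with 0.1 RPKM added to both values, had a median of 0.29 and quartiles of -0.14 and 0.72, and it was above 0 for 181 clones (68.0%), compared with 68.5% of all lncRNA entries and 69.1% of the other FANTOM3 clones. The median of the other 6486 FANTOM3 clones detected in both was 0.26, with quartiles of -0.098 and 0.61. The median log2 ratio of the 14854 mRNA entries detected in both was itself 0.32, and once the libraries were scaled to it the median of the F-series became -0.030.

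A clone is said here to have risen or fallen where its log2 ratio was at least 1 or at most -1, which is a 2-fold difference between these 2 libraries. By this measure 34 of the 266 F-series clones (12.8%) rose and 14 (5.26%) fell, whereas 218 lay within the limits. Over all 7615 lncRNA entries detected in both libraries, 9.38% rose and 3.47% fell. Among the other FANTOM3 clones, 584 of 6486 rose and 205 fell (3.16%), whereas the 863 RefSeq lncRNAs were close to the F-series, with 11.1% that rose and 5.21% that fell (4.63% and 10.5% after scaling to the median mRNA). After scaling to the median mRNA, 14 F-series clones rose (5.26%) and 22 fell (8.27%), against 4.22% and 7.22% of all lncRNA entries, so that the share of rises among the F-series clones past the limits went from 70.8% to 38.9%. Thus which direction held more clones depended on the scaling, and the scaled F-series shares were close to those of all lncRNAs.

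**Figure D2:**
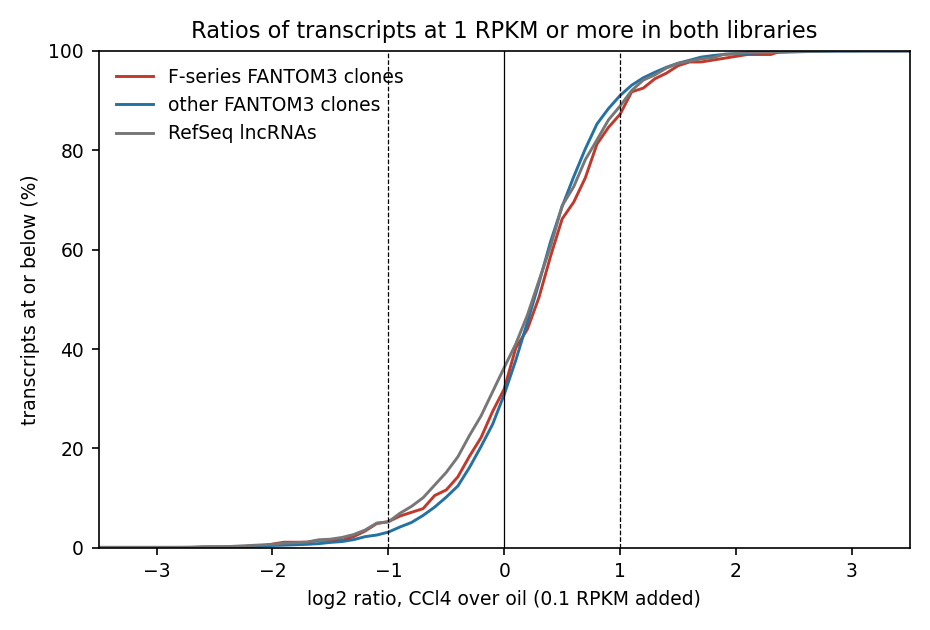
Cumulative percent of transcripts (vertical axis) at or below each log2 ratio of CCl4 over oil (horizontal axis), for F-series clones (red), other FANTOM3 clones (blue) and RefSeq lncRNAs (grey) detected in both libraries. The 3 curves ran close together in the middle, with medians of 0.29, 0.26 and 0.26, and beyond the dashed lines at 1 and -1 lay 12.8% and 5.26% of the F-series and 11.1% and 5.21% of the RefSeq lncRNAs, both more than of the other FANTOM3 clones.

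The depth was enough to set these differences apart from counting error. The RPKM of short genes change in steps of 1 read, which placed the depth at 57992570 reads with oil and 64655530 with CCl4. The smallest whole numbers of reads that gave each clone's RPKM were then found. The median F-series clone detected in both had at least 282 reads in the library with fewer. In all 34 clones that rose and all 14 that fell, the 95% exact Clopper-Pearson interval of the log2 read ratio lay on its side of 0. The same was true of 709 of the 714 entries that rose and all 264 that fell over all lncRNAs, which are 9.31% and 3.47% of the 7615 entries, so the F-series did not stand apart in this respect. The whole interval lay above 1 for 20 of the 266 F-series clones and below -1 for 11. Over all lncRNAs it did so for 384 and 182 of the 7615 entries. These intervals cover counting error only and say nothing of how far another mouse or preparation would differ.

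Clones of medium and high abundance held most of the F-series clones that moved. Because both values had to be at least 1 RPKM, a mean under 2 RPKM leaves little room for a 2-fold difference. The low shares in that bin are therefore partly set by the cutoff. Of the 66 clones with a mean under 2 RPKM, 3 rose (4.55%) and 1 fell (1.52%), against 2.97% and 0.680% of the other FANTOM3 clones. Between 2 and 5 RPKM 15 of 105 rose (14.3%) and 4 fell (3.81%), against 11.8% and 3.03% of the others. Between 5 and 20 RPKM 12 of 72 rose (16.7%) and 3 fell (4.17%), against 10.5% and 3.69% of the others. At 20 RPKM or more 4 of 23 rose and 6 fell (26.1%), against 8.65% and 10.3% of the 474 other FANTOM3 clones of that abundance. F830007A21 and F830206O22, with identical values, are both among these 6. Several bins rest on few clones, and of the 15 rises between 2 and 5 RPKM 12 were F630 clones.

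**Figure D3:**
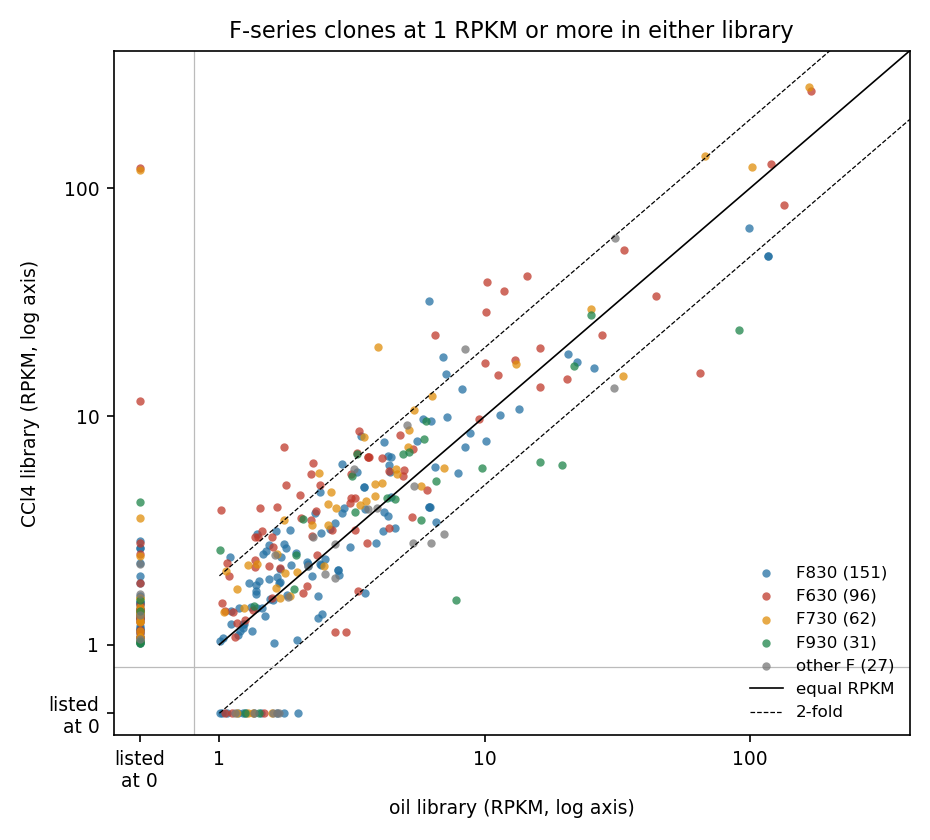
RPKM of each F-series clone in the oil library (horizontal, log axis) and the CCl4 library (vertical, log axis), colored by the first 4 characters of the identifier with the number of clones drawn, with clones listed at 0 in a strip along each axis. Most points lay between the dashed lines of a 2-fold difference, and 2 clones, at 122.7 and 120.4 RPKM with CCl4, stood in the strip of clones listed at 0 in the oil library.

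A few clones carried much of the signal. The summed RPKM of the F-series was 2554 with oil and 3172 with CCl4, 2.22% and 2.51% of the sum over all FANTOM3 clones. Without F630110E18 and F730002H19, the 2 highest clones listed at 0 in the oil library, the CCl4 sum was 2929. The 10 highest clones held 46.4% of the F-series sum with oil and 43.7% with CCl4. The most abundant clone by the mean of the libraries was F730014O09, at 167 RPKM with oil and 276.2 RPKM with CCl4, with a log2 ratio of 0.73 (counting interval 0.69 to 0.77). It was followed by F630046N03, at 170.1 and 265.3 RPKM with a log2 ratio of 0.64. Both were higher in the CCl4 library, but neither reached a 2-fold difference.

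The clone F630203P03 was nearly even, at 120.3 RPKM with oil and 127.5 RPKM with CCl4, with a log2 ratio of 0.084 and a counting interval of 0.016 to 0.15. F730007A20 was at 101.9 and 123.6 RPKM, with a log2 ratio of 0.28. Lower values in the CCl4 library were found for F630024B09, at 134.8 and 84.36 RPKM, and for F830224N14, at 99.13 and 67.08 RPKM, whose log2 ratios were -0.68 and -0.56. Of the 10 most abundant clones detected in both, only F730107D05 rose, from 67.88 to 139 RPKM with a log2 ratio of 1.03 and a counting interval of 0.98 to 1.09, and its log2 ratio was 0.72 after scaling to the median mRNA. Of these 10 clones 3 fell, F930037G02, F830007A21 and F830206O22, whose values are given with the largest falls.

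Within the F-series, the groups of clones differed in how often they were detected. The F830 group was by far the largest, with 1174 clones, of which 9.97% were detected with oil and 11.9% with CCl4. Of the 273 F630 clones, 29.7% were detected with oil and 34.1% with CCl4. The shares were 20.1% and 25.9% for the 224 F730 clones, and 22.3% and 25.9% for the 112 F930 clones. The 87 F430 clones stood at 14.9% and 13.8%, the only group of at least 50 clones with the smaller share after CCl4. The F420, F520 and F530 groups held 10, 5 and 49 clones and had 2, 2 and 6 detected in each library. Thus the largest group, F830, had the lowest shares of the 5 groups with at least 50 clones.

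The F630 clones made up most of the rises. Of the 78 F630 clones detected in both libraries, 20 rose (25.6%) and 3 fell (3.85%), with a median log2 ratio of 0.48 and quartiles of 0.047 and 0.98. In the 41 F730 clones the median was 0.37, and 35 were above 0 (85.4%), while 4 rose (9.76%) and 1 fell (2.44%), close to the 9.38% and 3.47% of all lncRNA entries. The 106 F830 clones had a median of 0.077, with 7 that rose (6.60%) and 3 that fell (2.83%). In the 23 F930 clones the median was 0.11, and 2 rose (8.70%) whereas 4 fell (17.4%). The 10 F430 clones had the lowest median of these groups, 0.068, and 1 rose and 2 fell. Without the F630 clones, 14 of 188 F-series clones rose (7.45%), which is below the 9.38% of all lncRNA entries, and 11 fell (5.85%), which is above the 3.47%. F630 had the highest share of rises of these groups and a lower share of falls than the whole F-series. Leaving it out therefore had to bring the rises below the 12.8% and the falls above the 5.26% of the whole F-series. After scaling to the median mRNA, 3 of these 188 clones rose (1.60%) and 18 fell (9.57%), against 4.22% and 7.22% of all lncRNA entries.

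Scaling to the median mRNA moved all groups by the same amount and kept their order. The medians became 0.16 for F630, 0.054 for F730, -0.24 for F830, -0.20 for F930 and -0.25 for F430, so that of these 5 only F630 and F730 stayed above 0. By the scaled ratio, 11 of 78 F630 clones rose (14.1%) and 4 fell (5.13%), and of 41 F730 clones 1 rose and 1 fell (2.44% each). Of 106 F830 clones 2 rose (1.89%) and 7 fell (6.60%), the latter close to the 7.22% of all lncRNA entries. Of 23 F930 clones none rose and 6 fell (26.1%), and of 10 F430 clones none rose and 2 fell. At like abundance the size of the gap before scaling varied. Between 2 and 5 RPKM, 12 of 30 F630 clones rose in comparison with 2 of 41 F830 clones and 12.3% of all lncRNA entries. Between 5 and 20 RPKM 4 of 21 and 4 of 26 rose (19.0% and 15.4%), against 10.8% of all lncRNA entries. Under 2 RPKM 1 of 17 and 1 of 35 rose, against 3.26%, and at 20 RPKM or more 3 of 10 and 0 of 4, against 8.49%. Clones of a group can overlap at a locus, so they are not independent of each other, and the difference between groups was not tested.

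**Figure D4:**
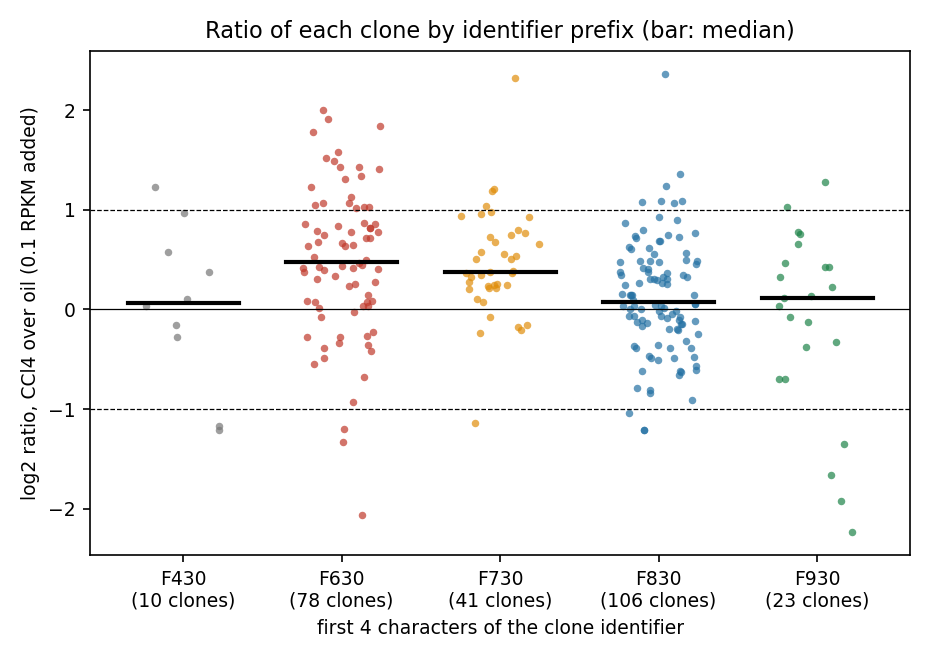
Log2 ratio of CCl4 over oil (vertical axis) of each clone detected in both libraries, for the 5 groups of identifiers with at least 50 clones in all (horizontal axis), with the number of clones drawn and the median as a bar. The F630 and F730 medians, 0.48 and 0.37, stood above those of F830, F930 and F430, 0.077, 0.11 and 0.068, and 4 F930 clones lay below -1, the lowest at -2.24.

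The largest rises were ranked over the clones detected in both libraries that averaged 2 RPKM or more, and folds, like the log2 ratios, are those after adding 0.1 RPKM to both values. F830013L13 went from 6.148 RPKM with oil to 32.1 RPKM with CCl4, 5.15-fold higher, with a log2 ratio of 2.37 (counting interval 2.19 to 2.58). F730037C07 went from 3.953 to 20.2 RPKM, 5.01-fold higher, with a log2 ratio of 2.32 (interval 2.13 to 2.59). F630101N06 went from 1.755 to 7.34 RPKM, 4.01-fold higher, with a log2 ratio of 2.0 (interval 1.75 to 2.39). These were the 3 F-series clones that rose by at least 2 on the log2 scale, and each belonged to a different group.

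The next rises all belonged to F630 clones. F630210B15 went from 10.19 to 38.62 RPKM with a log2 ratio of 1.91, F630212H09 from 1.011 to 3.87 RPKM with a log2 ratio of 1.84, and F630314E09 from 6.514 to 22.65 RPKM with a log2 ratio of 1.78. F630212H09 was close to the detection limit in the oil library and had at least 79 reads there, so that its interval, 1.58 to 2.31, was wider than the others. F630220N09, F630204B05 and F630004K18 were all above 10 RPKM in the oil library, at 11.78, 14.42 and 10.1 RPKM. In the CCl4 library they were at 35.31, 41.39 and 28.56 RPKM, which corresponds to log2 ratios of 1.58, 1.52 and 1.49. F630101J03 closed the 10 largest rises, from 1.784 to 4.985 RPKM with a log2 ratio of 1.43. All 10 kept a log2 ratio above 1 after scaling to the median mRNA, the smallest being 1.12 for F630101J03. Over all 34 clones that rose, oil values ran from 1.0 to 67.9 RPKM with a median of 2.65, and CCl4 values from 2.27 to 139 RPKM with a median of 6.54.

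The oil values of the 14 clones that fell had a median of 17.9 RPKM and a range from 2.73 to 117 RPKM, where a fall to a detected level needs about 2 RPKM or more with oil at the start. Their CCl4 values ran from 1.13 to 50.6 RPKM, with a median of 6.21 RPKM. The largest fall was that of F930101L07, from 7.766 to 1.569 RPKM, 4.71-fold lower, with a log2 ratio of -2.24 (counting interval of the reads -2.58 to -2.04). F630311A01 went from 65.03 to 15.45 RPKM, 4.19-fold lower, with a log2 ratio of -2.07 (interval -2.14 to -2.0). F930037G02 went from 90.6 to 23.81 RPKM with a log2 ratio of -1.92. The latter 2 were abundant in the oil library, whereas F930101L07 was not.

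In 2 further F930 clones, F930050A19 and F930117M04, the values went from 19.56 to 6.118 RPKM and from 16.19 to 6.301 RPKM, with log2 ratios of -1.66 and -1.35. Thus 4 of the 5 largest falls were F930 clones, from a group that holds 23 of the 266 clones detected in both. F630012J01 fell from 2.991 to 1.13 RPKM, F430109O12 from 30.82 to 13.28 RPKM and F430003M24 from 7.001 to 3.056 RPKM, with log2 ratios of -1.33, -1.21 and -1.17. F830007A21 and F830206O22 had the same values to the last digit, 116.9 RPKM with oil and 50.57 RPKM with CCl4, with a log2 ratio of -1.21, and are counted as 2 clones here.

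**Figure D5:**
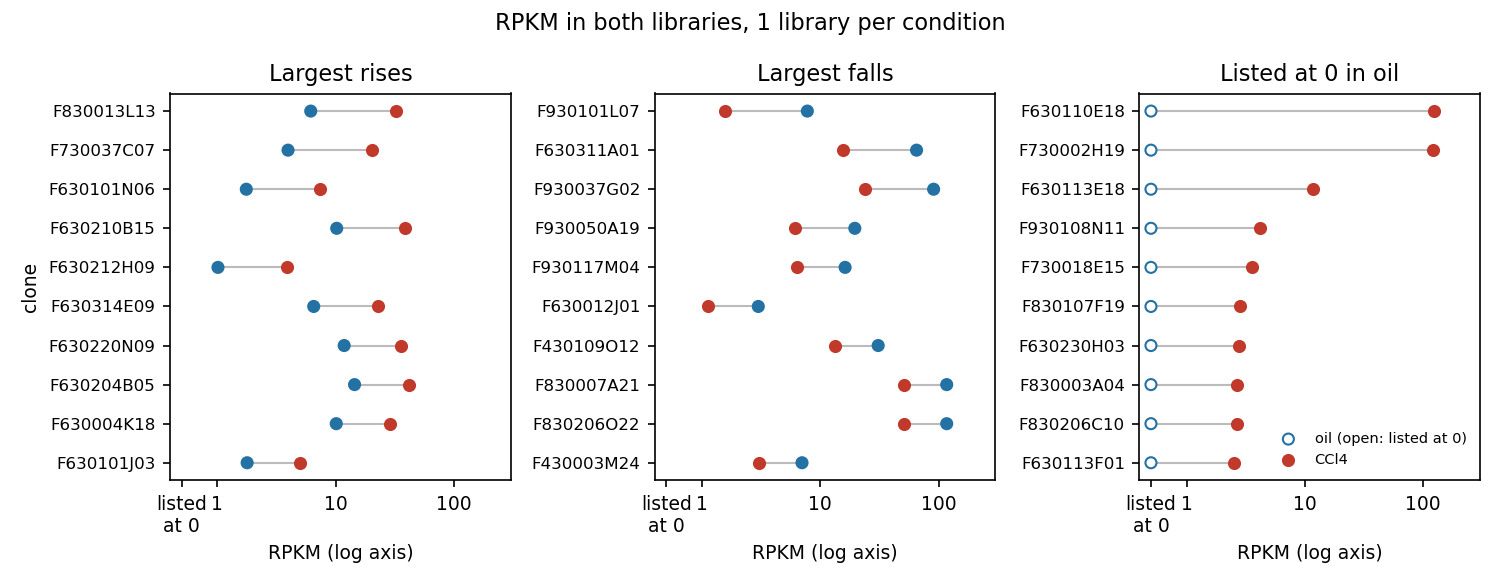
RPKM (horizontal, log axis) in the oil library (blue) and the CCl4 library (red) for the 10 F-series clones with the largest rises, the 10 with the largest falls and the 10 with the highest CCl4 value among those listed at 0 in the oil library (open circles). F630110E18 and F730002H19, at 122.7 and 120.4 RPKM in the CCl4 library, stood far to the right of the other clones listed at 0 in the oil library.

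The strongest clones of the CCl4 library in comparison with the control had no value in the oil library. F630110E18 was listed at 0 in the oil library and was at 122.7 RPKM in the CCl4 library. F730002H19 was likewise listed at 0 and at 120.4 RPKM. Among the 1665 lncRNA entries listed at 0 in the oil library and detected in the CCl4 library, these clones ranked 1 and 2 by their CCl4 value. They correspond to at least 1246 and 989 reads in the CCl4 library, so counting error is small there. No ratio is given against a listed 0, because the value that stood there is under 1 RPKM but otherwise unknown from the RPKM columns. The nearly equal levels of F630110E18 and F730002H19 do not show whether they come from 1 locus.

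Below these 2 clones the levels dropped steeply. F630113E18 was listed at 0 in the oil library and at 11.71 RPKM in the CCl4 library, which ranked 5 among the same lncRNA entries. F930108N11 and F730018E15 were at 4.207 and 3.583 RPKM in the CCl4 library. F830107F19, F630230H03 and F630113F01 were at 2.829, 2.794 and 2.493 RPKM, and F830003A04 and F830206C10 shared 1 value, 2.659 RPKM. Of all 76 clones seen only in the CCl4 library, 51 were under 1.5 RPKM and 5 were at 3 RPKM or more, with a median of 1.37 RPKM. Most of these clones therefore lay just above the detection limit in one library and below it in the other, which need not be a large difference.

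In the whole F-series, 3.93% of the clones were seen only in the CCl4 library and 1.29% only in the oil library. Both shares were close to those of all lncRNA entries, 4.49% and 1.28%. By group, 15 F630 clones (5.49%), 17 F730 clones (7.59%) and 6 F930 clones (5.36%) were seen only in the CCl4 library, compared with 34 F830 clones (2.90%). These shares are over all clones of a group, and the groups differ in how often they were detected. Out of the clones detected with CCl4, they were 15 of 93 for F630, 17 of 58 for F730, 6 of 29 for F930 and 34 of 140 for F830. On that base the F630 share was below that of F830. The 25 clones seen only in the oil library were all under 2 RPKM. The highest of them was F830216N24, at 1.974 RPKM, followed by F830009I06 at 1.747 RPKM, F530003M02 at 1.673 RPKM, and F830205K06 and F430114C21 at 1.653 RPKM each. The other 5 of the highest 10, F430102C17, F730225C20, F630214N22, F830020F09 and F930102H02, lay between 1.41 and 1.593 RPKM. No F-series clone was thus found that was abundant in the oil library and missing from the CCl4 library.

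Some clones had the same values as another clone. Of the 367 F-series clones detected in at least 1 library, 16 shared both of their values, a listed 0 included, with another FANTOM3 clone, in 10 pairs. In 6 pairs both clones belonged to the F-series, such as F630009G04 and F630230F18 at 3.624 and 6.63 RPKM. In the other 4 the partner came from another series, as for F830010I07 and D630049O18, both listed at 0 in the oil library and at 1.43 RPKM in the CCl4 library, and all 4 of these pairs shared a listed 0 and a single level. Whether equal values arose from the same reads was not tested. Leaving out repeated values gave 34 clones that rose and 13 that fell.

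Few clones could be paired with a named gene. The clone identifier followed by "Rik" is the form in which such clones enter RefSeq. The table used was that of GRCm38.p6, the assembly that mm10 names. In it, this form or the bare identifier was a symbol or synonym for 14 of the 1934 clones. Of these, 4 were detected, all in both libraries, and none of the 4 reached a 2-fold difference. F630107H02 is a synonym of Sfxn2, which encodes a mitochondrial carrier of the sideroflexin family, at chr19:46573325-46596901. The clone was at 6.046 and 4.751 RPKM with oil and CCl4, a log2 ratio of -0.34, and the Sfxn2 mRNA was at 7.36 and 5.509 RPKM, a log2 ratio of -0.41. F630025I20 is a synonym of Cep95, which encodes a centrosomal protein, at chr11:106788640-106818861. This clone was at 1.699 and 2.167 RPKM, a log2 ratio of 0.33, beside 1.467 and 1.976 RPKM for the mRNA, a log2 ratio of 0.41.

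F930017I19 is a synonym of Tomt, a catechol methyltransferase gene known for its role in hearing, at chr7:101899803-101906407. The clone went from 3.161 to 5.504 RPKM and the mRNA from 1.304 to 2.637 RPKM, with log2 ratios of 0.78 and 0.96. In these 3 genes the clone and the mRNA thus lay on the same side of even, and reads that fall in both were not separated. The remaining clone, F730311O21, gives its name to the lncRNA gene F730311O21Rik at chr1:132341917-132351444 and was at 1.852 and 1.631 RPKM. The other 10 matched clones were listed at 0 in both libraries.

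Marker genes of other cells were present in these hepatocyte libraries. Before scaling, most genes of the macrophage and stellate cell lists rose, whereas in the other lists of such cells few did. After scaling to the median mRNA, most stellate cell genes still rose, but most macrophage genes did not. All 8 hepatocyte genes were abundant in both libraries, Alb, which encodes albumin, at 8656 and 6476 RPKM. Before scaling 5 of them fell, among them Cyp2e1, the enzyme that activates CCl4, from 644.7 to 127.8 RPKM. Ttr and Ass1, at log2 ratios of -0.71 and -0.93, pass -1 as well after the scaling. Of all mRNA entries detected in both libraries, 14.4% rose and 5.30% fell before scaling. The 10 dendritic cell genes summed to 85.79 RPKM with oil and 233.8 RPKM with CCl4, mostly from H2-Ab1, a class II antigen-presenting chain shared with other cells, at 65.58 and 186.8 RPKM. Of the dendritic cell genes 6 were detected with oil and 9 with CCl4, 2 rose, and Xcr1, a receptor of cross-presenting dendritic cells, was listed at 0 in both. Itgax, which encodes CD11c, went from 1.251 to 10.22 RPKM.

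The 12 Kupffer cell and macrophage genes were all detected in both libraries and summed to 1358 and 3993 RPKM. Before scaling 8 of them rose. Of these, Adgre1, Csf1r, Cd5l and C1qa had log2 ratios of 1.25, 1.24, 1.10 and 1.13, which go under 1 after the scaling. Gpnmb, a glycoprotein of lipid-laden and scar-associated macrophages, went from 1.19 to 217.3 RPKM, whereas Clec4f, a Kupffer cell receptor, was at 282.6 and 254.5 RPKM. Stellate cell and myofibroblast genes summed to 78.08 and 887.8 RPKM, and 9 of 10 rose before scaling. Among these, Timp1, at 1.09, goes under 1 after the scaling. Pdgfrb, a growth factor receptor of these cells, was listed at 0 with oil and at 16.83 RPKM with CCl4. Lymphocyte genes stayed low, with sums of 14.85 and 28.53 RPKM, and the defining genes Cd3e, Cd8a and Ncr1 were listed at 0 in both libraries. The 3 matched neutrophil genes summed to 294.5 and 205.4 RPKM, and the 5 endothelial genes to 383.8 and 632.8 RPKM. Before scaling 1 gene of each list rose and none fell. With the scaling, the endothelial gene Lyve1, at 1.05, goes under 1. The neutrophil genes S100a8 and S100a9, at -0.81 and -0.83, then pass -1. The part of these cells in the values of the F-series clones was not tested, and in a bulk preparation more cells of a type and more RNA per cell cannot be told apart.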

How the data were processed

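RNA-seq values of mouse hepatocytes, 1 library each, were analysed. The authors deposited RPKM values (reads per kilobase of transcript, scaled to library depth) for lncRNAs, mRNAs and new lncRNAs. The submitters' processing notes name CASAVA 1.4, TopHat2 and mm10. The counting program, annotation version and strand are not given in the sources used here. The deposited tables also hold the authors' own log2 changes, p-values and q-values, which were not used. Values under 1 RPKM were listed as 0, as checked on 1443 new lncRNAs also deposited without this cutoff (1354 in the oil and 1347 in the CCl4 library, all listed as 0).

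Log2 ratios were computed over all lncRNA entries of at least 1 RPKM in both libraries, with a pseudocount of 0.1 RPKM, and called at an absolute value of 1. With 1 library per condition no test was made. Library totals were searched so that RPKM of RefSeq genes under 400 bases became whole reads (206 of 214 genes in the oil and 218 of 227 in the CCl4 library). A value counted as whole within 0.003 reads of a whole number, or within the rounding of the deposited RPKM where that was wider (at most 0.015 reads). For each transcript the shortest length from 50 to 30000 bases giving whole reads was taken. In simulated data of this comparison, the recovered reads equalled the true reads in 78.3% of 1437 transcripts and are lower bounds by construction. All 147 changed transcripts were called in the right direction. Their changes were set at an absolute log2 ratio of 2, with counting noise only, so these calls were nearly assured. They say little of clones near the limit of 1. The recovery of reads was devised after the data had been seen.

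Named clones were the 10 largest rises and falls (mean of at least 2 RPKM), the 10 most abundant, the 10 highest listed at 0 in either library, and clones matched to RefSeq symbols. Clones named for shared values were chosen after their values were seen. Of 27457 mRNA entries, 27049 were paired with symbols, and each gene was represented by its most abundant transcript. The marker list for neutrophils held 4 genes, of which 3 were matched. The members and lists were chosen with earlier results of these data known. Alternatives were other pseudocounts, detection limits, scaling to the median mRNA, a listed 0 set at 1 RPKM, repeated values left out and a stricter ratio. Python 3.11.15, numpy 2.4.6, pandas 2.3.3, scipy 1.17.1 and matplotlib 3.10.9 were used.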

Additional observations from a re-analysis of the deposited data

How the results depend on the processing

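No paired analysis was possible because there was 1 library per condition. The 34 F-series clones that rose became 20 with a pseudocount of 1 RPKM, 22 and 10 at a detection limit of 2 and 5 RPKM, 14 with the libraries scaled to the median mRNA and 3 at a log2 ratio of at least 2. The 14 that fell became 9 with a pseudocount of 1 RPKM, 8 at a limit of 5 RPKM, 22 with the scaling and 2 at the stricter ratio. For F630, 20 rises became 12, 11 and 5, 11 and 1 under the same pseudocount, limits, scaling and ratio. For F830, 7 rises became 4 with the pseudocount, 3 at a limit of 5 RPKM, 11 with a listed 0 set at 1 RPKM, 2 with the scaling and 1 at the stricter ratio. Scaling turned the median log2 ratio of the F-series to -0.030 and of the other FANTOM3 clones to -0.0595, and at a limit of 5 RPKM they were 0.29 and 0.14. The detected share of 15% in the oil library became 9.36% and 4.08% at 2 and 5 RPKM, and that of 17.7% in the CCl4 library became 11.4% and 5.27%, and 15.8% with the scaling. Higher limits and pseudocounts and a stricter ratio lower counts by construction. Of the 21 named clones that rose or fell, 19 with a pseudocount of 1 RPKM and 20 with the scaling stayed past 2-fold. F630012J01 and F430003M24 did not with the pseudocount, at -0.91 and -0.98, nor F730107D05 with the scaling, at 0.72. All 21 kept their direction by construction. An equal pseudocount cannot change the side of even, and the scaling moves a log2 ratio by only 0.32. The alternatives for F630 and F830 and the counting intervals were chosen after seeing the data. Below 1 RPKM the RPKM columns give no level for these clones.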
